A study of Oncorhynchus mykiss with 6 samples.

Results

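miR-128 was read from both arms of its hairpin in the liver of rainbow trout. Its rare 5p forms stood in a different proportion to its abundant 3p form in subordinate and dominant fish, mainly through the form ssa-miR-128-3-5p. The members were every sequence of the deposited table named miR-128, in any arm or form, which were 10 of 1389 sequences. miR-128 itself was chosen by an unlike change of its arms between the groups in these same libraries, so the differences between the groups are given for it as a description, with no test. Of the 10 members, 5 came from the 3p arm, 4 from the 5p arms and 1 from another stretch of the precursor.

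The livers of 3 socially subordinate (SS) and 3 socially dominant (SD) fish gave the small RNA libraries. All 6 were wild type juveniles of the strain labelled Walbaum, killed after 4 d in pairs, with 1 library per fish. By the study's description, SD fish in general took the food of a pair and SS fish had a short fast and raised cortisol beside their social defeat, and these cannot be told apart. Libraries are named here by group and by the fish code of their labels (SS 4A, SS 6A and SS 1B, and SD 4B, SD 6B and SD 21A). Mappable reads ranged from 2420009 to 6061431 per library and counts in the table from 1183289 to 3382970. SS 6A had the lowest share of its mappable reads in the table, at 33.9%, against 46.2% to 55.8% in the other 5.

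A miRNA precursor folds into a hairpin, and the enzyme Dicer cuts from it a duplex of a 5p and a 3p strand. Usually one strand is kept by an Argonaute protein and the other is degraded, so that one arm is read far more often. Bases 2 to 8 of the kept strand, the seed, do most of the pairing with target mRNAs, and the strands of one hairpin have different seeds. In mammals miR-128 is made from more than one gene, is abundant in neurons, and its 3p strand represses the cholesterol exporter ABCA1 in liver cells. Salmonid genomes were duplicated again after the split from other teleosts, and the Atlantic salmon names used in the table number several miR-128 hairpins.

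The members are printed 5′ to 3′ as the deposited table spells them, with T for U and the seed in capitals, because the results turn on forms that differ in a few bases. The prefix of a name gives the fish whose miRBase entry was matched (ssa Atlantic salmon, ccr common carp, dre zebrafish, tni a pufferfish). The first 4 below come from 5p arms.
ssa-miR-128-3-5p: cGGGGCCGgggcgctgtctgaga
ssa-miR-128-2-5p: cGGGGCCGgggcactgtctgaga
ssa-miR-128-1-5p_1ss12CT: cGGGGCCGggatgctgtctgaga
ssa-miR-128-4-5p_R-1: gGGGGCCGttacactgtaag
ccr-miR-128: tCACAGTGaaccggtctcttt
dre-miR-128-3p_R+1: tCACAGTGaaccggtctcttttt
dre-miR-128-3p_R+1_2ss21TA22TG: tCACAGTGaaccggtctcttagt
tni-miR-128_R+2_1ss22TA: tCACAGTGaaccggtctctttaga

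Counted from 1 at the 5′ end, ssa-miR-128-2-5p differed from ssa-miR-128-3-5p by G13A, and ssa-miR-128-1-5p_1ss12CT differed from it by G11A and C12T. All 3 were 23 nt long, with a GC content of 78.3% for the form numbered 3, 73.9% for the form numbered 2 and 69.6% for the form numbered 1. The 3p sequence ccr-miR-128 was 21 nt long with a GC content of 47.6%. The 5p seed GGGGCCG was found in 4 sequences of the table, all of them miR-128, whereas the 3p seed CACAGTG stood at bases 2 to 8 of 5 sequences, of which 4 were miR-128. In a computed duplex, each of the 3 more often read 5p forms made 14 base pairs with ccr-miR-128, with energies of -26.2 kcal/mol (form 3), -26.6 kcal/mol (form 2) and -21.9 kcal/mol (form 1). In the authors' classification, ssa-miR-128-3-5p, ssa-miR-128-2-5p and ccr-miR-128 matched miRBase genes that mapped to the trout genome. The form ssa-miR-128-1-5p_1ss12CT did not map there and was kept as a mature miRNA already known from trout.

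The 3p arm dominated in every liver. Levels are given as normalized reads, which are counts divided by the authors' size parameter of each library, and a value after ± is the standard deviation over the 3 fish of a group (n = 3). The single sequence ccr-miR-128 was read at 1622 (SS 4A), 1630 (SS 6A) and 2092 (SS 1B) normalized reads in SS fish and at 1910 (SD 4B), 1227 (SD 6B) and 1924 (SD 21A) in SD fish. Its group means were 1781 ± 269 in SS fish and 1687 ± 399 in SD fish. The groups overlapped, since SD 6B was the lowest library and SS 1B the highest. The edgeR log2 difference, SS minus SD, was 0.06 (SE 0.25). Behind these values stood 11250 reads over the 6 libraries. In whole liver, fewer cells that hold a miRNA and less of it per cell cannot be told apart.

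Of the 4 rarer 3p forms, the 3 printed above shared the seed of ccr-miR-128 and differed from it at the 3′ end. dre-miR-128-3p_R+1, which ends in 2 more T, was read at 32.7 (SS 4A), 34.1 (SS 6A) and 42.5 (SS 1B) normalized reads in SS fish and at 50.0 (SD 4B), 31.4 (SD 6B) and 52.3 (SD 21A) in SD fish. Its means of 36.4 ± 5.27 and 44.5 ± 11.5 overlapped, with an edgeR log2 difference of -0.30 (SE 0.35). Among all 3p reads its share was 1.999% ± 0.0394 in SS fish and 2.55% ± 0.0813 in SD fish, and the SD fish all lay above the SS fish. The spread within each group was smaller than the counting error of a single fish. Even in SD 21A, which had the most 3p reads, the 95% Wilson interval ran from 2.17% to 3.23%. The intervals of the summed counts were 1.66% to 2.40% in SS fish and 2.22% to 3.02% in SD fish, and they overlapped. ccr-miR-128 itself made up 97.7% ± 0.0292 of the 3p reads in SS fish and 97.0% ± 0.144 in SD fish.

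The remaining 3p members were near or below what the depth allowed to be read. dre-miR-128-3p_R+1_2ss21TA22TG had 34.5 reads in all, at 5.90 ± 2.07 normalized reads in SS fish and 5.27 ± 1.98 in SD fish, and its groups overlapped. tni-miR-128_R+2_1ss22TA had counts of 3, 1 and 2 in SD 4B, SD 6B and SD 21A and 0 in each SS fish, where a count of 0 allows up to 3 counts. ipu-miR-128_L+6, a channel catfish match that starts 6 bases earlier and so has another seed, had 0.5 read, in SS 6A. Reads that fit several sequences were shared among them, and 9 of the 22 values above 0 of 3p members were whole numbers (within 1e-06), against 19 of 19 of 5p members.

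**Figure D1:**
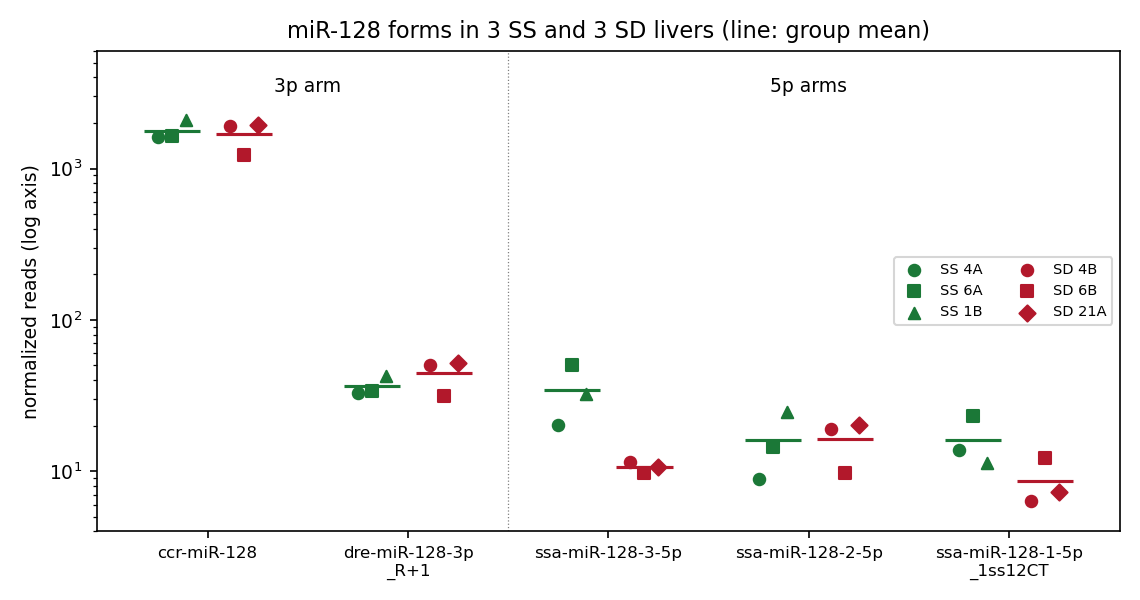
Normalized reads (log axis) of the 5 miR-128 forms that passed the filter on low counts, 1 point per fish with a line at the group mean, SS in green and SD in red. ssa-miR-128-3-5p is the form whose SS fish (20.3 to 50.4) all lie above its SD fish (9.78 to 11.4). The groups of the other 4 forms overlap.

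Among the 5p forms, the one numbered 3 was higher in each SS fish than in any SD fish. ssa-miR-128-3-5p had counts of 25 (SS 4A), 35 (SS 6A) and 34 (SS 1B) in SS fish and of 9 (SD 4B), 8 (SD 6B) and 19 (SD 21A) in SD fish. These were 20.3, 50.4 and 32.3 normalized reads in SS fish and 11.4, 9.78 and 10.7 in SD fish, in the same order. SS 4A was the lowest SS fish and still stood above SD 4B, the highest SD fish. The means were 34.3 ± 15.2 in SS fish and 10.6 ± 0.831 in SD fish, a ratio of 3.23, and the edgeR log2 difference was 1.64 (SE 0.42). The spread of the SD fish was smaller than their counting error, which as a standard deviation was 3.81 (SD 4B), 3.46 (SD 6B) and 2.46 (SD 21A) normalized reads. SS 6A, the highest fish, also had the smallest size parameter, 0.694 against up to 1.77, and without it the log2 difference was 1.29. As CPM, counts scaled to the table total of each library, the fish stood at 11.6, 23.8 and 20.03 CPM in SS fish and 7.61, 5.28 and 5.62 in SD.

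The forms numbered 2 and 1 did not share this separation. ssa-miR-128-2-5p had counts of 11 (SS 4A), 10 (SS 6A) and 26 (SS 1B) in SS fish and of 15 (SD 4B), 8 (SD 6B) and 36 (SD 21A) in SD fish. Its normalized reads were 8.92, 14.4 and 24.7 in SS fish and 19.1, 9.78 and 20.3 in SD fish, with means of 16.02 ± 8.02 and 16.4 ± 5.75. Both the lowest and the highest fish were SS, and the edgeR log2 difference was -0.06 (SE 0.49). ssa-miR-128-1-5p_1ss12CT had counts of 17 (SS 4A), 16 (SS 6A) and 12 (SS 1B) in SS fish and of 5 (SD 4B), 10 (SD 6B) and 13 (SD 21A) in SD fish. Its normalized reads were 13.8, 23.0 and 11.4 in SS fish and 6.35, 12.2 and 7.33 in SD fish, with means of 16.1 ± 6.15 and 8.64 ± 3.15. SD 6B stood above SS 1B, so that the groups overlapped, and the edgeR log2 difference was 0.85 (SE 0.45). ssa-miR-128-4-5p_R-1 was read once, in SD 21A, and the precursor fragment ola-mir-128-p5_2ss3GC17GT, a medaka match, had 2 reads in SS 1B.

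Over all sequences, the quasi-likelihood test of edgeR, adjusted by Benjamini-Hochberg, called 2 of 338 at an adjusted p under 0.05, which is 0.592%, and 0 of the 5 miR-128 forms tested. At an unadjusted p under 0.05 it held 37 of the 338 and 1 of the 5, and DESeq2 called 7 of the 338 and 0 of the 5. In 36 of the 338 sequences (10.7%) the lowest SS fish exceeded the highest SD fish, and ssa-miR-128-3-5p was the miR-128 form among them. Its log2 difference ranked 6 from the highest of 338. The median log2 difference of all sequences was -0.02, with 168 above 0 and 170 below, and percentiles 5 and 95 were -0.82 and 1.23. miR-128 was chosen on this contrast, so nothing is read from these counts.

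**Figure D2:**
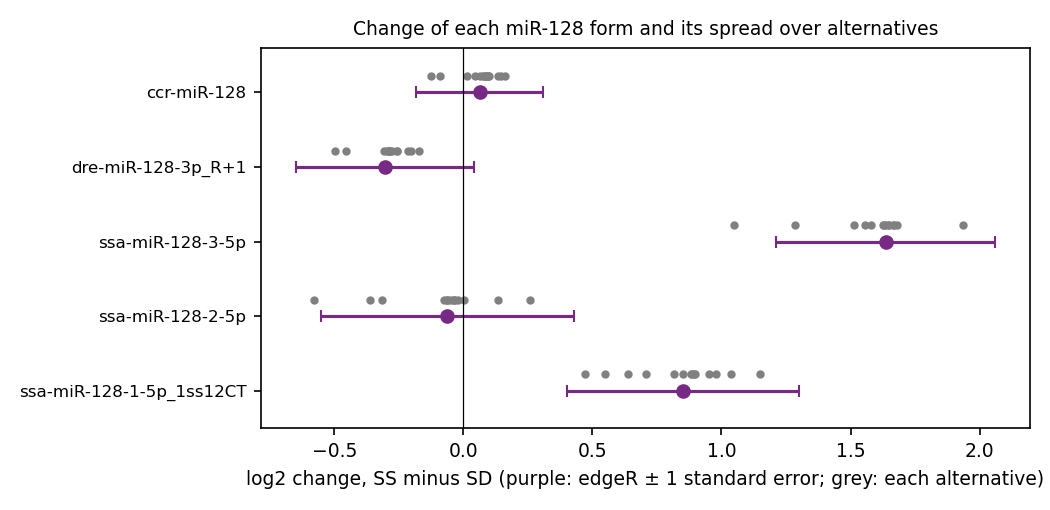
The log2 difference between SS and SD fish for each of the 5 miR-128 forms tested, as estimated by edgeR (purple, with 1 standard error to each side), with a grey point for each alternative processing. The alternatives for ssa-miR-128-3-5p run from 1.05 to 1.94, and as its SS and SD fish do not overlap, its sign could hardly change. ssa-miR-128-2-5p lies on both sides of 0.

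The make-up of the 5p reads differed between the groups. The share of ssa-miR-128-3-5p among all 5p reads was 47.2% (SS 4A), 57.4% (SS 6A) and 47.2% (SS 1B) in SS fish, and 31.0% (SD 4B), 30.8% (SD 6B) and 27.5% (SD 21A) in SD fish. The groups did not overlap, at 50.6% ± 5.88 against 29.8% ± 1.95. The summed counts gave a share of 50.5% in SS fish (95% Wilson interval 43.4% to 57.6%) and of 29.0% in SD fish (21.8% to 37.6%). ssa-miR-128-2-5p took 24.4% ± 10.4 of the 5p reads in SS fish and 44.9% ± 12.2 in SD fish, with overlap. ssa-miR-128-1-5p_1ss12CT took 24.99% ± 7.78 and 24.8% ± 11.8. The log2 ratio of form 3 to form 2, which differ by a single base, was 1.18 (SS 4A), 1.81 (SS 6A) and 0.39 (SS 1B) in SS fish and -0.74 (SD 4B), 0.00 (SD 6B) and -0.92 (SD 21A) in SD fish. Form 3 was thus the more frequent of the pair in every SS fish and in no SD fish. The authors' matching to miRBase allowed a mismatch in the stretch that holds base 13, the only base in which the pair differs. Whether reads of one form were counted as the other was not tested. These reads carry no molecular identifiers, so the intervals cover counting error only. Those of the summed counts also leave out the spread between fish.

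**Figure D3:**
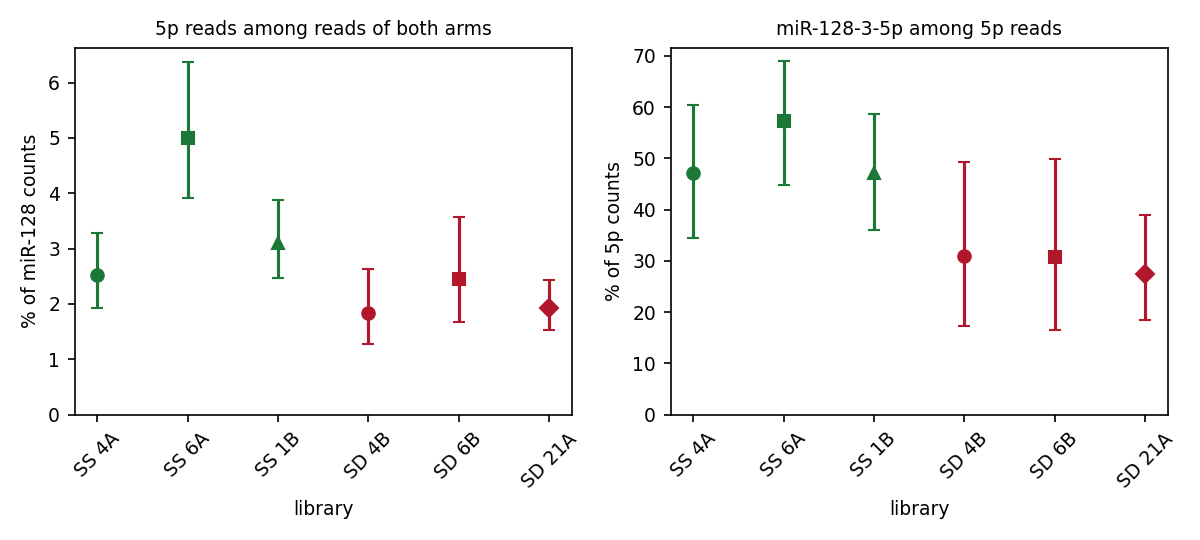
Left, the percentage of miR-128 counts that came from the 5p arms in each library, and right, the percentage of the 5p counts that were ssa-miR-128-3-5p, with 95% Wilson intervals as bars (SS green, SD red). In the left plot SS 4A (2.52%) and SD 6B (2.45%) nearly touch, and in the right plot the lowest SS fish stands at 47.2% and the highest SD fish at 31.0%.

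The level of the 3p arm over the 5p arms was not what chose miR-128 and was tested within libraries. Summed 5p counts were 53 (SS 4A), 61 (SS 6A), 72 (SS 1B), 29 (SD 4B), 26 (SD 6B) and 69 (SD 21A). Reads of the 3p arm exceeded them in 6 of 6 libraries, by 19.0-fold in SS 6A to 53.4-fold in SD 4B. The mean within-library log2 ratio of 3p to 5p was 5.20 ± 0.55 (standard deviation, n = 6), or 36.8-fold, with p = 0.03125 in an exact two-sided sign-flip permutation test, the smallest p that 6 libraries can give. As the 3p arm was higher in every library, this test could give no other p, and it adds nothing to the ratios themselves. The 3p arm made up 0.0684% to 0.133% of all counts in the table.

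Summed over its forms, the 5p arm had 43.0 (SS 4A), 87.9 (SS 6A) and 68.5 (SS 1B) normalized reads in SS fish and 36.9 (SD 4B), 31.8 (SD 6B) and 38.9 (SD 21A) in SD fish. The groups did not overlap, at 66.4 ± 22.5 and 35.8 ± 3.67. The 3p arm had 1661 (SS 4A), 1668 (SS 6A) and 2142 (SS 1B) in SS fish and 1969 (SD 4B), 1267 (SD 6B) and 1981 (SD 21A) in SD fish, at 1824 ± 276 and 1739 ± 409, with overlap. On the log2 scale the 5p arm stood 0.83 higher in SS fish and the 3p arm 0.09 higher. The difference in the arm ratio is the gap between these values. Without SS 1B or without SD 6B the 3p value fell to -0.03 or -0.13, whereas the 5p value stayed between 0.60 and 1.12 when any library was left out.

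A ratio of arms within a library does not depend on the scaling of that library. The share of 5p reads among those of both arms was 2.52% (SS 4A), 5.004% (SS 6A) and 3.10% (SS 1B) in SS fish and 1.84% (SD 4B), 2.45% (SD 6B) and 1.93% (SD 21A) in SD fish. SS 4A and SD 6B differed by far less than their 95% Wilson intervals, which ran from 1.93% to 3.29% and from 1.68% to 3.56%. With the counts of each group summed, the share was 3.30% (2.86% to 3.79%) in SS fish and 1.99% (1.67% to 2.37%) in SD fish. The intervals of these sums cover counting error only and leave out the spread between fish. SD 21A alone gave 3582 of the 6223 reads of both arms in SD fish. The log2 ratio of 5p to 3p was -5.27 (SS 4A), -4.25 (SS 6A) and -4.97 (SS 1B) in SS fish and -5.74 (SD 4B), -5.32 (SD 6B) and -5.67 (SD 21A) in SD fish. Its means were -4.83 ± 0.53 and -5.58 ± 0.23, a difference of 0.75 (SE 0.33). This difference rested mainly on a single form and partly on a single fish. Without ssa-miR-128-3-5p it was 0.23, and without SS 6A it was 0.46.

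The same ratio was computed for every miRNA number with a mean count of at least 10 per library on both arms, which were 44. SS fish all stood above SD fish for 5 of them (11.4%), miR-128 included. The difference of miR-128 ranked 5 from the highest and 7 by size, and the median size was 0.31. Of the 44 differences, 22 were above 0 and 22 below, with a median of 0.01. The next higher was that of miR-106 (0.95) and the next lower that of miR-27 (0.56), and the groups of both overlapped. The ends of the ranking were miR-221 (1.95), whose 5p arm was 1.37 higher and whose 3p arm was 0.59 lower in SS fish on the log2 scale, and miR-21 (-1.60). Among the 22 numbers whose rarer arm had under double the mean count of the miR-128 5p arm, 4 had a larger difference in size.

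**Figure D4:**
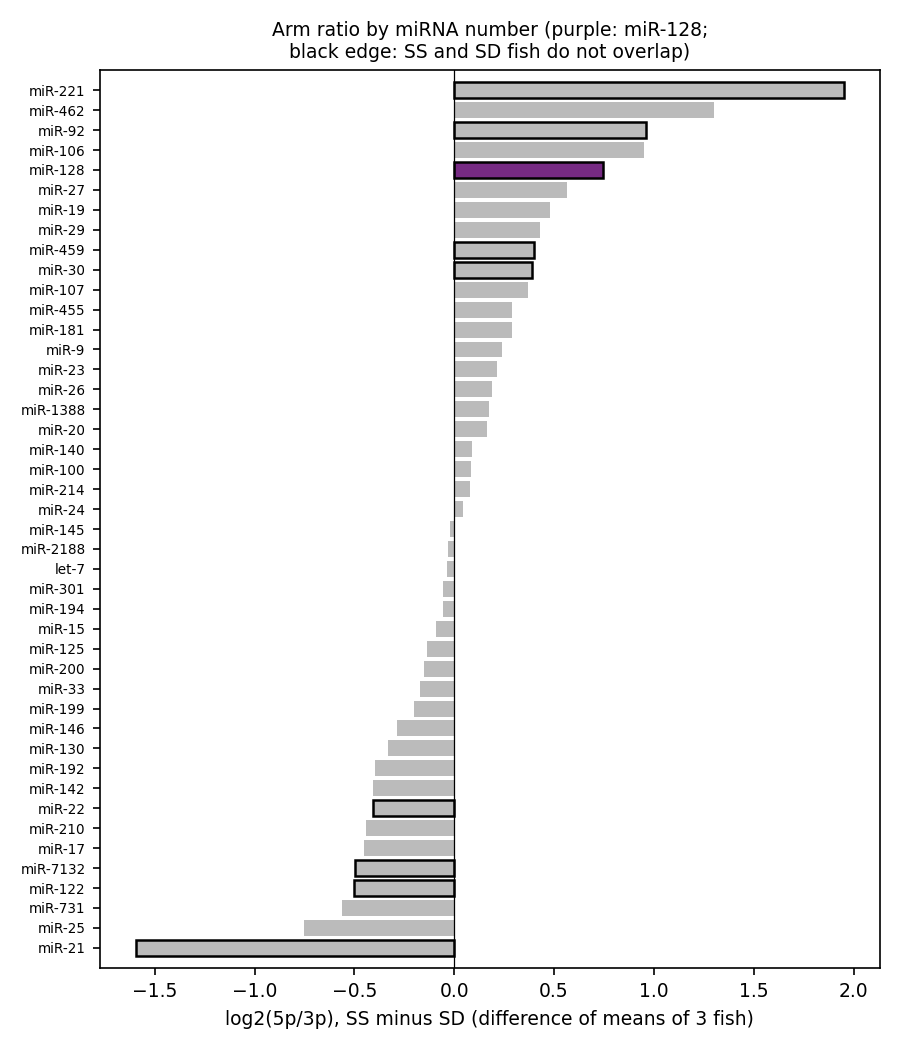
Difference between the mean log2 ratio of 5p to 3p in SS fish and in SD fish, for the 44 miRNA numbers read from both arms (miR-128 in purple, black edges where the fish of the groups do not overlap). miR-128, at 0.75, stands between miR-106 (0.95) and miR-27 (0.56), inside the range from -1.60 to 1.95.

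The letters of the 3p seed were also found in miR-27, a family known in mammals for repressing genes of fat metabolism. In 10 miR-27 sequences the letters CACAGTG stood 1 base further from the 5′ end, at bases 3 to 9, and in 1 they stood at bases 2 to 8. The most abundant were read as follows, again with these letters in capitals.
dre-miR-27c-3p: ttCACAGTGgttaagttctgc
dre-miR-27b-3p_R-1: ttCACAGTGgctaagttctgc

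Together the 11 miR-27 sequences had 15399 ± 3847 normalized reads in SS fish and 17177 ± 6325 in SD fish, with overlap, and were read 5.26 to 18.04 times as often as the 3p arm of miR-128 in the same library. Of the 6 that were tested, edgeR called 0 (Benjamini-Hochberg adjusted p from 0.533 to 0.937), against 2 of 338 over all sequences. The log2 differences of these 6 ran from -0.73 to 0.09 with a median of -0.19. dre-miR-27c-3p stood at 8837 ± 2346 in SS fish and 8109 ± 3040 in SD fish, and dre-miR-27b-3p_R-1 at 4893 ± 1527 and 7347 ± 3046, with an edgeR log2 difference of -0.62 (SE 0.38, Benjamini-Hochberg adjusted p = 0.533). No other sequence of the table held the 5p seed within its first 10 bases.

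Across the 6 libraries, the forms of miR-128 did not follow one pattern. Pearson's r of log2(normalized reads + 1) with ccr-miR-128 was 0.85 for ssa-miR-128-2-5p, 0.78 for dre-miR-128-3p_R+1, 0.24 for ssa-miR-128-3-5p and -0.41 for ssa-miR-128-1-5p_1ss12CT. Between the 5p forms it was 0.78 for forms 3 and 1, 0.13 for forms 3 and 2 and -0.45 for forms 2 and 1. These are descriptions over 6 libraries that share the size parameter of each library and, for the 5p forms, rest on few counts.

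Among the other 333 sequences, those most like ccr-miR-128 by this measure were dre-miR-199-3p_L-1 (r = 0.91), ssa-miR-203a-3p (r = 0.88) and dre-miR-203a-3p_R+1_1ss21TC (r = 0.87). Those most like ssa-miR-128-3-5p were ssa-miR-29b-2-5p_L-2 (r = 0.97), hhi-let-7j (r = 0.93) and ssa-miR-146a-3p_R-2 (r = 0.91). With 333 sequences compared over 6 libraries, some high r arise without any tie between the sequences, and no r was tested. Like ssa-miR-128-3-5p, each of the sequences most like it was higher in every SS fish than in any SD fish. Its likenesses thus in part restate the difference between the groups. ssa-miR-29b-2-5p_L-2 was read at 1090 (SS 4A), 1722 (SS 6A) and 1344 (SS 1B) normalized reads in SS fish and at 456 (SD 4B), 414 (SD 6B) and 445 (SD 21A) in SD fish. It was chosen here for this likeness and was 1 of the 2 sequences called by edgeR (Benjamini-Hochberg adjusted p = 0.0213, log2 difference 1.63).

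The livers were dominated by miR-122, the miRNA that marks hepatocytes, at 576193 to 813536 normalized reads in SS fish and 597730 to 702931 in SD fish. Of its 5 sequences tested edgeR called 0, with 2 higher in SS fish at an unadjusted p under 0.05, against 37 of 338 over the table in either direction, and a median log2 difference of 0.05. Since miR-128 is known from neurons, 8 miRNA numbers of neurons were read beside it, and they summed to 240 to 271 normalized reads in SS fish and 186 to 261 in SD fish, below the 3p arm of miR-128 in every library. Of these 8 none was at 0 on average, and miR-124 stood at 18.01 to 41.2 over the 6 fish and miR-9 at 32.8 to 115, both with lower means in SS fish. miR-153 (73.6 ± 48.0 in SS fish, 26.8 ± 14.4 in SD fish) and miR-218 (56.6 ± 14.6 and 42.4 ± 4.61) had higher means in SS fish. So did miR-138 (9.49 ± 4.44 and 7.65 ± 0.90) and miR-219 (2.47 ± 1.78 and 1.86 ± 0.54). Of 6 neuron sequences tested edgeR called 0, also at an unadjusted p under 0.05, with 2 above 0, 4 below and a median log2 difference of -0.17. Over all sequences edgeR called 2 of 338 (0.592%), so 0 called among so few miR-122 or neuron sequences cannot show whether they differed. The part of any of these cells in the miR-128 values was not tested.

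Other cell types gave sums that overlapped between the groups. The erythrocyte miRNAs miR-144 and miR-451 summed to 1822 to 7856 normalized reads in SS fish and 4950 to 6719 in SD fish, and all 6 of their tested sequences were below 0 (median -0.31). The leukocyte miRNAs (miR-142, miR-150, miR-155 and miR-223) summed to 1833 to 2173 in SS fish and 1585 to 2517 in SD fish, with 4 of 7 tested sequences above 0 (median 0.22). Those of muscle (miR-1, miR-133 and miR-206) summed to 46.0 to 83.8 in SS fish and 27.7 to 75.3 in SD fish, and miR-126 of endothelium to 15357 to 26223 and 15920 to 19380. Of the erythrocyte, leukocyte, muscle and endothelium sequences, 6, 7, 1 and 3 were tested. edgeR called 0 of them, also at an unadjusted p under 0.05. Over all sequences it called 2 of 338 (0.592%), and 37 of 338 had an unadjusted p under 0.05. Lists this short cannot show whether these cell types differed between the groups.

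Because the 3p strand of miR-128 is known in mammals as a repressor of cholesterol transport, the miRNAs miR-33, miR-27, miR-122, miR-144, miR-148, miR-130, miR-301 and miR-223, which are tied in mammals to cholesterol or lipid transport, were set beside it. They gave 72 sequences, of which 35 were tested. edgeR called 0 of the 35, against 2 of 338 over all sequences. At an unadjusted p under 0.05, 5 were higher in SS fish and 0 lower, against 37 of 338 in either direction over all sequences. Of these 5, 2 were the miR-122 sequences already counted, a 3p form (log2 difference 0.57) and a precursor fragment (1.55). The others were dre-miR-148 (0.47), ola-miR-148_R+1 (1.199) and ssa-miR-27d-5p (0.66). The list goes by miRNA number, so it pools both arms and precursor fragments, not only the strands tied to lipid transport. Of the 35, 22 were above 0 and 13 below, with a median of 0.12, against a median of -0.02 over all sequences.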

How the data were processed

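Small RNA from 6 trout livers had been sequenced, and reads of 15 to 32 nt were kept. The authors filtered them with the ACGT10-miR pipeline and matched them to fish miRNAs of miRBase with Bowtie, in version 1.1.1 by the submitters' processing notes. The table the authors deposited gives expected counts (reads with more than one match are split between the matches) and a signal called normalized reads, which is the count divided by a size parameter per library, with 0 written as 0.001 and read as 0 here. A deposited summary gives read counts per filtering step. Nothing was aligned again, no genome was used, and no coordinates are given.

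Expected counts were rounded, and edgeR 4.0.16 in R 4.3.3 (filterByExpr with minimum count 10, TMM, quasi-likelihood test) compared SS with SD libraries over 338 sequences, adjusting p by Benjamini-Hochberg and calling at 0.05. The SE given with an edgeR log2 difference is the size of that difference divided by the square root of the F statistic of this test. Alternatives used DESeq2 1.42.0 and limma 3.58.1. Forms were assigned to an arm by their name or by a shared stretch of at least 14 bases. Duplexes were computed with RNAduplex of ViennaRNA 2.7.2. At this depth the 3 tested 5p forms had 5 to 36 reads per library.

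The members and the lists of other miRNAs were chosen with earlier results of these data known. Named are all rows of miR-128 and sequences that hold the letters of its seed within their first 10 bases. Also named are the 3 sequences most like ccr-miR-128 and like ssa-miR-128-3-5p, and the neighbours and ends in the ranking of arm ratios. Labels do not say which fish shared a pair, so edgeR treated the fish as unpaired, and its p-values rest on the spread between these fish. The sign-flip test compared the arms within each library.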

Additional observations from a re-analysis of the deposited data

How the results depend on the processing

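Sequences called over the whole table numbered 2. They were 18 with no filter on low counts, 7 by DESeq2, 1 by limma on log2(normalized reads + 1), and 0 to 6 when 1 library was left out (0 without SS 1B, SD 4B or SD 21A, 1 without SD 6B, 6 without SS 6A). In all 15 alternatives 0 miR-128 forms were called. The log2 difference of ssa-miR-128-3-5p, 1.64, was above 0 in 14 of 14 alternatives, and lowest, at 1.05, with limma on log2(normalized reads + 10). Its SS fish all lay above its SD fish in the libraries that chose miR-128, so its sign could hardly change. A filter at a mean count of 50 left ccr-miR-128 alone among the members. ssa-miR-128-2-5p was above 0 in 3 of 14. The 5p arm difference of 0.83 was 1.60 with the most abundant form of each arm and 0.32 without ssa-miR-128-3-5p. The most abundant 5p form is ssa-miR-128-3-5p through its SS counts (in SD fish form 2 has 59 reads against 36), so the larger value follows from the choice. The difference of the arm ratio, 0.75, was 1.497 and 0.23 in the same settings, and 0.46 to 0.97 when 1 library was left out. The SS and SD fish did not overlap in the 5p arm or in the arm ratio. Leaving out a library could thus not change the sign of either. The 3p arm difference ran from -0.13 to 0.20. The level of 3p over 5p ran from 5.09 to 5.39 with 1 library left out, where 5 libraries allow no exact p below 0.0625. CPM for the arm sums were chosen after seeing the data and gave 0.78 for the 5p and 0.03 for the 3p arm.

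Codes SS 4A and SD 4B, and SS 6A and SD 6B, share a number, which the labels do not tie to a shared pair. With this number as a replicate block, 0 sequences were called and ssa-miR-128-3-5p stood at 1.56. Deviations from the group means correlated at 0.13 (number 4) and 0.44 (number 6) over 338 sequences. The arm ratio was higher in the SS fish by 0.47 within number 4 and by 1.07 within number 6. Because the groups did not overlap in this ratio, any pairing of an SS with an SD fish had to give a positive value. The signs of these values thus add nothing to the difference between the groups.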
